A study of Mus musculus with 31 samples.

Results

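Red blood cells trapped in a liver sample and the hepatocytes around them both carry RNA of the heme pathway, and 9 genes on the liver arrays stand for it here. They are the globin genes Hba-a1, Hbb-bt and Hbb-b1, the red cell anion exchanger Slc4a1 (band 3), the erythroid and the housekeeping forms of 5-aminolevulinate synthase (Alas2 and Alas1), and the heme synthesis enzymes Alad, Urod and Fech. The genes were chosen by name, with earlier results of these arrays known, and the higher globin signal of 1 mouse line was part of that choice. Of the 36059 probes tested 13 carry these names, and the genes make up 9 of 23968 gene names tested. The 13 include A_52_P1035989, which is named for Alad but reads the opposite strand. All 13 probes passed the filter on dim spots, and none of their spots was saturated.

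Each of the 31 arrays, 1-color Agilent arrays, read the liver RNA of 1 male C57BL6/J mouse. There were 8 ChREBPβ-deficient mice, in which exon 1b of Mlxipl was removed by CRISPR/Cas9 in the germline and so in all tissues, and 8 of their WT littermates. The second line gave 7 total ChREBP-KO mice, which are Mlxipl-null and lack both isoforms of the glucose-responsive transcription factor ChREBP, and 8 of their WT littermates. Total ChREBP-KO replicate 3 was not analysed here. All mice, WT included, were fasted for 24 hours and then refed for 18 hours with food and water holding 20% glucose. Ages were not given in the sources used here, nor was it stated which founder line a ChREBPβ-deficient mouse came from.

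Heme is built in a fixed order of steps. ALAS1 in liver and ALAS2 in erythroid cells make 5-aminolevulinic acid, ALAD joins it into porphobilinogen, later enzymes that include UROS, UROD, CPOX and PPOX lead to protoporphyrin, and FECH inserts the iron. In liver most new heme goes to cytochrome P450 enzymes, and ALAS1 is the step that is controlled, by heme itself and by nuclear receptors. In erythroid cells the heme goes to hemoglobin, which α globin and β globin chains form. A mature red cell has no nucleus but a reticulocyte still holds globin mRNA, so globin signal in liver RNA is commonly read as blood left in the tissue.

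The globin probes share sequence with near-identical genes, which decides what each can tell apart. The Hba-a1 probe A_51_P169730 and the probe named for Hba-a2 share a run of 59 of 60 bases, so α globin signal cannot be split between the copies. The Hbb-b1 probe carries the name of a β globin gene of another mouse haplotype. A run of 46 of its 60 bases matched the start of Hbb-bs in the RefSeq table of GRCm38.p6 (a C57BL/6J genome), against a longest run of 12 bases for Hbb-bt. The first 30 bases of the probe are shown with the same stretch of both genes, and capitals mark where Hbb-bt differs from the probe.
Hbb-b1 probe A_55_P2108151: tttgcttctgacatagttgtgttgactcac
Hbb-bs: tttgcttctgacatagttgtgttgactcac
Hbb-bt: tttgcttctgaTTCTgttgtgttgactTGc
The probe lies at chr7:110976379-110976438 on the minus strand of mm9, and the Hbb-bt probe at chr7:110961105-110961164 on the same strand. No probe of the array carries the name Hbb-bs.

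The second Hba-a1 probe and a pair of Alas1 probes hold a reading frame that is open over all 60 bases. They are shown because the 2 α globin probes served as repeat readings of the same RNA, and because the Alas1 probes differed in whether they passed the test.
Hba-a1 probe A_55_P1962303: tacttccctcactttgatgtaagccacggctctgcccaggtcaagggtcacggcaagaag
Alas1 probe A_66_P109200: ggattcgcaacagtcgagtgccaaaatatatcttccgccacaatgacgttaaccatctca
Alas1 probe A_52_P129756: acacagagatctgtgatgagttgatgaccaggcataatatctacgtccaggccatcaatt
The first lies at chr11:32183955-32184014 on the plus strand of mm9, and the others at chr9:106141046-106141105 and chr9:106137803-106137862 on the minus strand. The third Alas1 probe, A_55_P2083649 at chr9:106136284-106136343, was the brightest of the 3 and stands for the gene where a single value is given. Levels below are log2 of the quantile-normalized median intensity of a spot without background subtraction, which understates changes of dim probes, and levels of different probes are not set against each other.

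The depth of the arrays was even. Between 34131 and 38612 spots per array were well above background, and the lowest correlation between arrays was 0.980. The arrays lay on 15 slides scanned on 2 days, and each day held mice of all 4 groups. The targeted gene Mlxipl was checked with 3 probes. Probe A_55_P2119957 was lower in total ChREBP-KO mice, at -1.16 on the log2 scale (limma adjusted p = 8.05e-13), and in ChREBPβ-deficient mice, at -0.45 (adjusted p = 0.015). Probe A_55_P2728555 fell by 0.59 in total ChREBP-KO mice (adjusted p = 0.003), while A_55_P2045158 was at 10.97 in their WT littermates and 10.92 in the KO mice (adjusted p = 0.60).

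Globin signal separated the mouse lines and not the genotypes. Hba-a1 ranged from 15.36 to 16.45 (median 15.89) in the WT littermates of the ChREBPβ line and from 15.78 to 16.50 (median 16.22) in ChREBPβ-deficient mice. It ranged from 16.75 to 17.28 (median 16.93) in the WT littermates of the total ChREBP line and from 16.44 to 17.48 (median 16.92) in total ChREBP-KO mice. All 8 WT mice of the total ChREBP line were above all 8 WT mice of the ChREBPβ line, whereas the KO groups of the lines overlapped, at 16.44 against 16.50. Between the WT groups the difference in means was 1.05 (log2), which is 2.08-fold, and between the KO groups it was 0.77, or 1.71-fold.

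**Figure D1:**
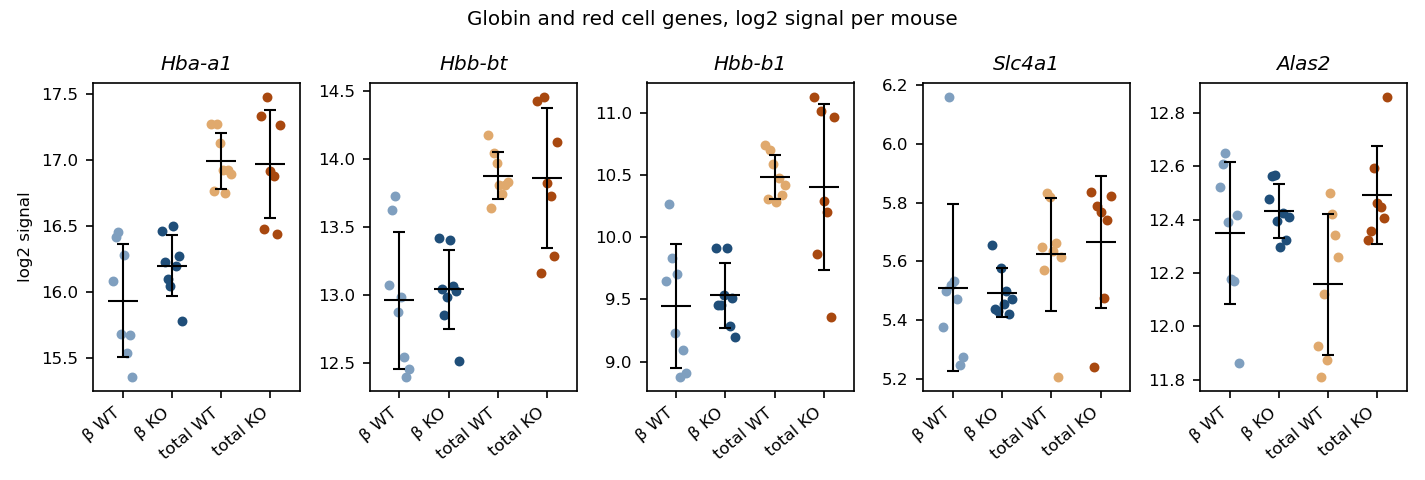
Log2 signal of the globin genes, Slc4a1 and Alas2 in each mouse (points), with group mean and SD (black), for WT littermates and ChREBPβ-deficient mice (β) and WT littermates and total ChREBP-KO mice (total); vertical scales differ between genes. The 3 globin genes sit about 1 log2 unit higher in the total ChREBP line (0.92 to 1.05 between the WT groups), and Slc4a1 and Alas2 do not follow them.

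The other globin probes gave the same offset. The second Hba-a1 probe differed by 1.04 (log2) between the WT groups and by 0.78 between the KO groups. Hbb-bt was at 12.96 ± 0.51 (SD, n = 8) in WT mice of the ChREBPβ line and at 13.88 ± 0.17 (n = 8) in WT mice of the total ChREBP line, a difference of 0.92. Its WT groups overlapped, since the highest mouse of the ChREBPβ line reached 13.73 and the lowest of the other line was at 13.64. Hbb-b1 was at 9.45 ± 0.50 and 10.48 ± 0.18, a difference of 1.04, and its WT groups touched without overlap, at 10.27 and 10.29. Outside the 9 genes, Hba-a2 differed by 1.04 and Hbb-b2 by 1.03, but embryonic Hbb-bh1 by 0.09. The offset between lines was a reason for choosing these genes, so it was described and not tested. Of all probes, 0.372% were higher by at least 0.9 between these WT groups and 0.721% were higher with no overlap.

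The offset was present on both scan days. Between the WT groups Hba-a1 differed by 0.90 on the first day and by 1.21 on the second, Hbb-bt by 0.65 and 1.18, and Hbb-b1 by 0.82 and 1.25. With slide as a fixed block the Hba-a1 offset was 0.88. In bulk liver RNA, more red cells and more globin RNA per red cell cannot be told apart, and whatever else differed between the mouse lines at collection cannot be told apart from line.

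Neither deficiency moved the globin genes by an amount that passed the test. In ChREBPβ-deficient mice against WT littermates the log2 difference was 0.26 for Hba-a1 (95% interval -0.06 to 0.58), 0.08 for Hbb-bt (-0.30 to 0.46) and 0.09 for Hbb-b1 (-0.33 to 0.51). In total ChREBP-KO mice it was -0.02 for Hba-a1 (-0.35 to 0.31), -0.02 for Hbb-bt (-0.41 to 0.37) and -0.08 for Hbb-b1 (-0.51 to 0.36). The interval for Hba-a1 in total ChREBP-KO mice stayed inside the 1.05 by which the WT groups of the lines differed. Total ChREBP-KO mice were more spread than their WT littermates, with a range of 3.44-fold for Hbb-b1 against 1.37-fold.

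Slc4a1 was dim and did not show the globin offset. It ranged from 5.25 to 6.16 and from 5.42 to 5.66 in WT and deficient mice of the ChREBPβ line, and from 5.21 to 5.83 and from 5.24 to 5.84 in those of the total ChREBP line. Every group overlapped every other, and the WT groups differed by 0.11 (log2). The probe was well above background on all 31 arrays, and it lies at chr11:102210256-102210315 of mm9.

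Alas2, the erythroid enzyme, also ran apart from the globins. Its medians were 12.41 in WT and 12.42 in ChREBPβ-deficient mice, and 12.19 in WT and 12.45 in total ChREBP-KO mice. The WT groups differed by -0.19, opposite to the globin genes. Among WT mice of the total ChREBP line, the 4 scanned on the first day were between 11.81 and 12.12 and the 4 scanned on the second day between 12.26 and 12.50. The offset of Alas2 between WT groups was -0.52 on the first day and 0.14 on the second, so its sign rested on the day.

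Some markers of other cells differed between the WT groups in the direction of the globins, and the red cell list as a whole did not. Of 31 listed red cell and erythroblast genes, 20 were measured, and their median difference between the WT groups was 0.01 (11 positive, 9 negative), against 0.01 over all genes. Their signal, averaged over the genes on the linear scale, ranged from 2864 to 3759 in WT mice of the ChREBPβ line and from 3062 to 4794 in those of the total ChREBP line. That average rests mostly on the brightest probe, Hemgn, with means of 15.4 and 15.6 (log2) in these groups. Ahsp, Sptb, Rhag, Kel and Gata1, which define red cells and their precursors, are on the array but did not pass the filter. Of 7 neutrophil genes all 7 were higher in WT mice of the total ChREBP line, by a median of 0.47, with S100a9 at 1.02. Their averaged signal ranged from 177 to 502 in WT mice of the ChREBPβ line and from 317 to 697 in those of the other line. Between the KO groups 6 of 7 neutrophil genes were higher in total ChREBP-KO mice, by a median of 0.36, with S100a9 at 0.88. All 5 exocrine pancreas genes measured were also higher in WT mice of the total ChREBP line, by a median of 1.04. Their averaged signals were 157 to 232 (median 206) in WT mice of the ChREBPβ line, against 216 to 3881 (median 317). The WT mice of the total ChREBP line were uneven in these genes, with SDs of 1.15 to 2.07 against 0.13 to 0.45. Between the KO groups the median difference of the exocrine pancreas genes was 0.14 (4 positive, 1 negative), within a span of -0.03 to 2.12. Their averaged signals were 154 to 218 (median 185) in ChREBPβ-deficient mice and 232 to 685 (median 437) in total ChREBP-KO mice. Between the WT groups the medians were 0.11 for 7 platelet genes, -0.11 for 8 lymphocyte genes and -0.07 for 8 Kupffer cell genes. They were 0.16 for 7 sinusoidal endothelial genes, 0.00 for 7 hepatocyte genes and 0.02 for 5 adipocyte genes. The hepatocyte median was the value of Alb, which quantile normalization left the same on every array (SD 0), so it says nothing about hepatocytes. Differences of the 7 hepatocyte genes ran from -0.095 to 0.139. The part of these cells in the globin offset was not tested.

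From mouse to mouse the globin genes moved together. Each mouse's deviation from its group mean was compared with that of Hba-a1 over all 31 arrays, for 8 genes, with group labels kept in 100000 permutations. Hbb-bt followed Hba-a1 at Pearson r = 0.944 and Spearman rho = 0.958 (adjusted p = 4e-05 for each), and Hbb-b1 at r = 0.920 and rho = 0.905 (adjusted p = 4e-05 for each), where the unadjusted permutation p of 9.9999e-06 was the smallest that could be reached. Within a line or a scan day r stayed between 0.918 and 0.971 for Hbb-bt and between 0.901 and 0.928 for Hbb-b1. Without the 2 mice farthest from the median of Hba-a1 the values were 0.936 and 0.910.

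The red cell genes that are not globins followed less closely. Slc4a1 gave r = 0.557 and rho = 0.506 (permutation p = 0.003 and 0.006, adjusted p = 0.008 and 0.015), and r = 0.514 without the 2 farthest mice. Its r was 0.627 among mice scanned on the first day and 0.103 on the second, so the relation did not hold on both days. Alas2 gave r = 0.315 and rho = 0.221 (permutation p = 0.117 and 0.263, adjusted p = 0.20 and 0.42), with 0.561 in the ChREBPβ line, 0.073 in the total ChREBP line, and 0.455 and 0.622 on the first and second scan day. Without the 2 farthest mice its r was 0.153.

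The enzymes expressed in hepatocytes showed no relation to Hba-a1 that passed the test. Over the 31 mice r was -0.03 for Alas1, 0.06 for Alad, -0.09 for Urod and -0.32 for Fech, with rho of -0.07, -0.002, -0.13 and -0.25. The permutation p-values of r were 0.88, 0.79, 0.66 and 0.12, and adjusted they were 0.88, 0.88, 0.88 and 0.20. The adjusted p-values of rho were 0.83, 0.99, 0.66 and 0.42. For Fech r was -0.68 in the total ChREBP line (adjusted p = 0.072 by permutation) and 0.06 in the ChREBPβ line, and -0.46 and -0.17 on the scan days.

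**Figure D2:**
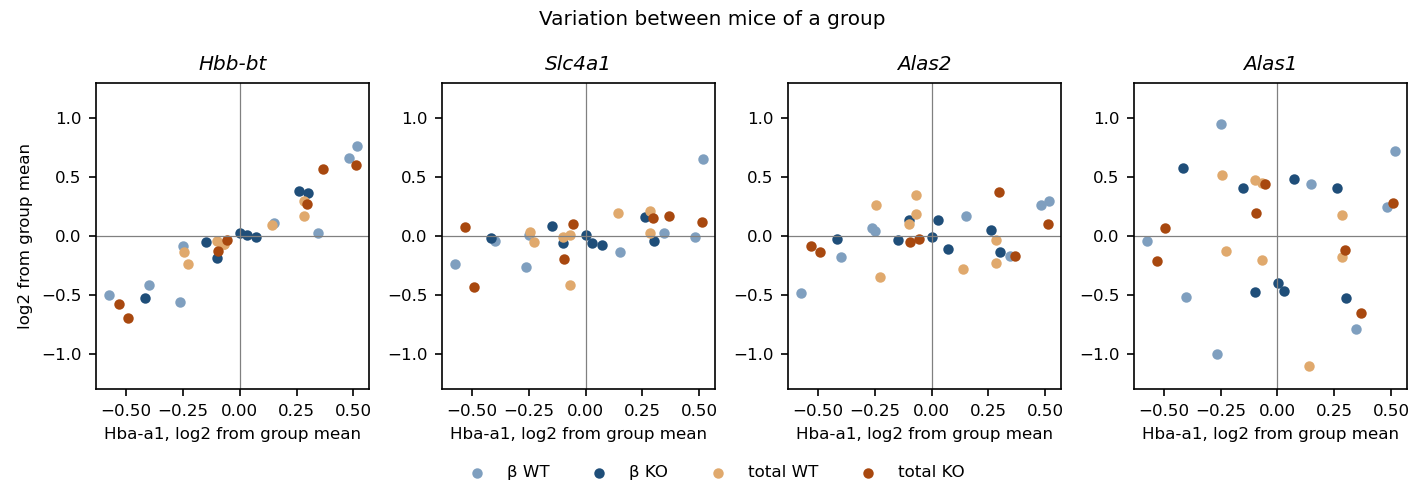
Deviation of each mouse from its group mean (log2) for Hbb-bt, Slc4a1, Alas2 and Alas1 on the vertical axes, against that of Hba-a1 on the horizontal axes; each point is 1 of 31 mice, colored by group. Hbb-bt falls along a line (r = 0.944), Slc4a1 less so (r = 0.557), and Alas1 spreads widely at every level of Hba-a1 (r = -0.03).

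The genes whose deviations were most like those of Hba-a1 were Hba-a2 (r = 0.995), Hbb-b2 (0.954), Hbb-bt and Hbb-b1, over 31 mice. All 4 are globin genes. These correlations are a description, since the genes were picked by them.

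In total ChREBP-KO mice some heme synthesis enzymes were higher, some were lower and Urod did not pass the test. Of the 9 genes, 4 were called higher in total ChREBP-KO mice than in WT littermates (Alas2, Alas1, Alad and Fech, by 4 of 13 probes) and none lower. Of all probes, 14.5% were called higher and 14.6% lower in this comparison, or 29.1% in all, in limma with Benjamini-Hochberg adjustment at 0.05. Counted in either direction, 4 of 13 is near the 29.1% of all probes. All 4 were higher, however, against 14.5% of all probes called higher. Whether 4 of 13 exceeds that share was not tested. Of all genes, counted as called if any probe was, 17.3% were called higher and 17.1% lower. Of 3 other enzymes of the pathway, Cpox was called higher, and Uros and Ppox were called lower. Over the 9 genes the median log2 difference was 0.05, against 0.01 over all genes.

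**Figure D3:**
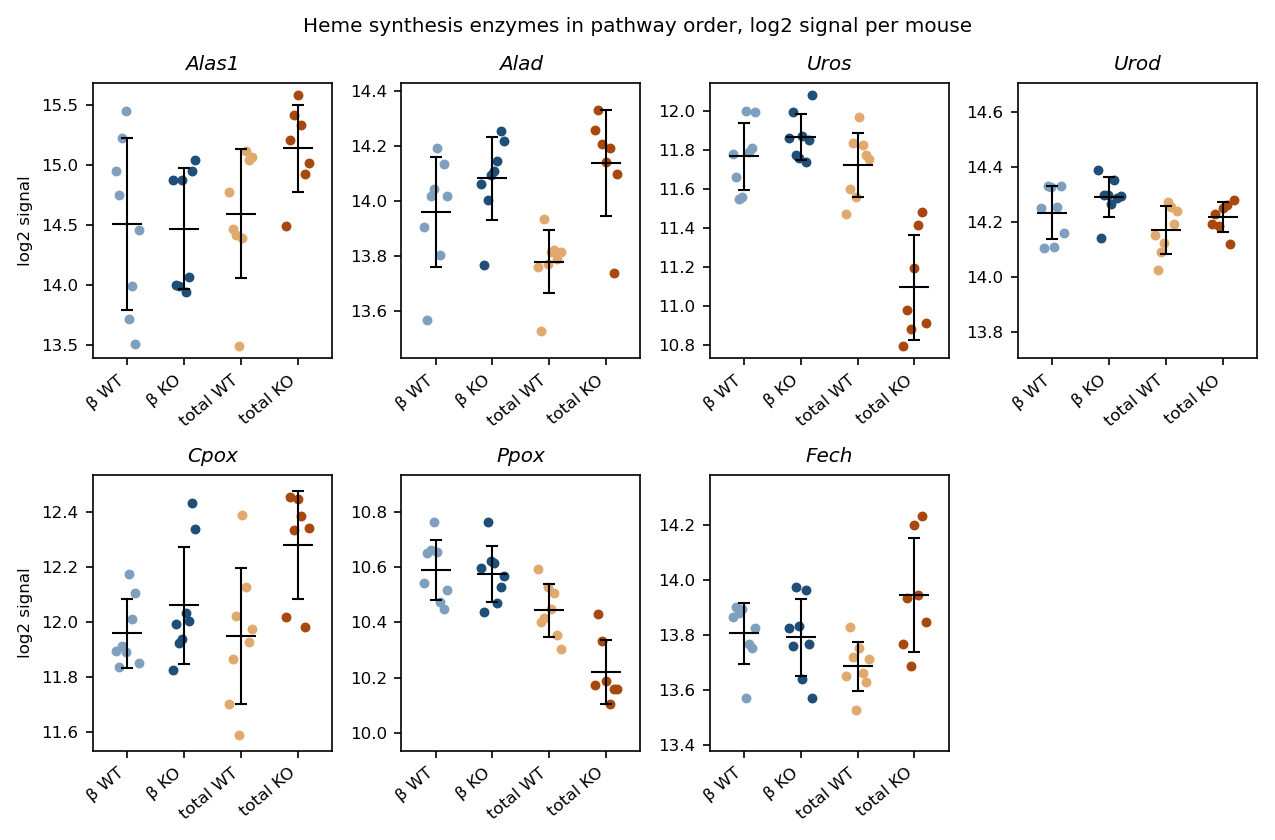
Log2 signal of the liver-expressed heme synthesis enzymes in pathway order, in each mouse (points) with group mean and SD (black); groups as WT littermates and ChREBPβ-deficient mice (β) and WT littermates and total ChREBP-KO mice (total), with vertical scales that differ between genes. In total ChREBP-KO mice Alad, Cpox and Fech are higher and Uros and Ppox lower, and Alas1 is spread over more than 1 log2 unit in every group.

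The first step, Alas1, varied more between mice of a group than most probes did. Its brightest probe ranged from 13.50 to 15.45 (median 14.61) in WT mice of the ChREBPβ line, which is 3.86-fold, and from 13.94 to 15.04 (median 14.47) in ChREBPβ-deficient mice. In the total ChREBP line it ranged from 13.49 to 15.11 (median 14.62) in WT and from 14.49 to 15.58 (median 15.20) in KO mice. Among ChREBPβ-deficient mice, 4 lay between 13.94 and 14.06 and 4 between 14.88 and 15.04, and each of these sets held mice of both scan days. The SD within groups was 0.55 to 0.60 for the 3 probes, above 98.2% to 98.6% of all probes, compared with 0.08 for Urod, above 3.55% of probes.

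Alas1 was called higher in total ChREBP-KO mice by 1 of its 3 probes. The difference was 0.77 ± 0.29 (log2, standard error, adjusted p = 0.041) for A_66_P109200, 0.71 ± 0.29 (adjusted p = 0.067) for A_52_P129756 and 0.54 ± 0.27 (adjusted p = 0.13) for the brightest, all by limma. All 3 estimates had the same sign and the KO and WT mice overlapped for each. For A_66_P109200 the difference was 1.11 on the first scan day (adjusted p = 0.079) and 0.39 on the second (adjusted p = 0.53). The call of this probe was lost under 7 of 14 alternatives and in 9 of the 31 fits that each left out 1 mouse (0.62 to 0.88, adjusted p up to 0.10). The test of whether the change differed between lines gave adjusted p-values of 0.33, 0.16 and 0.16 for the brightest probe, A_52_P129756 and A_66_P109200.

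Alas2, its erythroid counterpart, rose in total ChREBP-KO mice by 0.34 ± 0.11 (log2, standard error), or 1.26-fold (limma adjusted p = 0.018). The 7 KO mice ranged from 12.32 to 12.86 and overlapped with WT littermates at 11.81 to 12.50. The difference was 0.50 among mice scanned on the first day (adjusted p = 0.006) and 0.19 on the second (adjusted p = 0.42). Without KO replicate 8 it was 0.28 (adjusted p = 0.057). In the same comparison Hba-a1 differed by -0.02 (95% interval -0.35 to 0.31). The part of blood content in the rise of Alas2 was not tested.

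Alad, the second step, rose by 0.36 ± 0.08 (log2, standard error), or 1.28-fold (limma adjusted p = 0.002). It ranged from 13.53 to 13.93 (median 13.80) in WT littermates and from 13.74 to 14.33 (median 14.19) in total ChREBP-KO mice. In 6 of 7 KO mice it was between 14.10 and 14.33, above every WT littermate, and the remaining mouse was at 13.74. On the scan days the difference was 0.48 (adjusted p = 0.017) and 0.20 (adjusted p = 0.22). The other probe named Alad reads the opposite strand at chr4:62182797-62182856 of mm9, was well above background on 19 of 31 arrays (none of the 8 WT mice of the total ChREBP line), and is no measure of Alad mRNA.

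Uros fell furthest among the enzymes. It makes uroporphyrinogen III. It ranged from 11.47 to 11.97 (median 11.76) in WT littermates and from 10.80 to 11.48 (median 10.98) in total ChREBP-KO mice, with 1 KO mouse reaching the lowest WT mouse. The difference was -0.63 ± 0.09 (log2, standard error), so KO mice were at 0.647 of WT (limma adjusted p = 6.28e-06). The other 2 probes gave -0.56 (adjusted p = 9.32e-05) and -0.37 (adjusted p = 0.00035). In ChREBPβ-deficient mice it differed by 0.10, and the changes in the lines differed by -0.73 (limma adjusted p = 0.0002). All 3 probes passed that test.

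Ppox, the step before Fech, fell by less than Uros. It fell by 0.22 ± 0.06 (log2, standard error, limma adjusted p = 0.004) with its brighter probe, and its second probe, well above background on 25 of 31 arrays, gave -0.12 (adjusted p = 0.13). On the scan days the brighter probe gave -0.20 (adjusted p = 0.12) and -0.26 (adjusted p = 0.014).

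Cpox and Fech, which act late in the mitochondrion, rose. Cpox ranged from 11.59 to 12.39 in WT littermates and from 11.98 to 12.45 in total ChREBP-KO mice, with a difference of 0.33 ± 0.10 (log2, standard error, limma adjusted p = 0.013). It was 0.52 on the first scan day (adjusted p = 0.007) and 0.13 on the second (adjusted p = 0.64). With slide as a fixed block it was 0.27 (adjusted p = 0.082). Its second, dimmer probe gave 0.20 (adjusted p = 0.24). Fech ranged from 13.53 to 13.83 (median 13.69) and from 13.69 to 14.23 (median 13.93), with a difference of 0.26 ± 0.07 (adjusted p = 0.008). On the scan days it differed by 0.21 (adjusted p = 0.23) and 0.32 (adjusted p = 0.043). Urod, between Uros and Cpox, was at 14.17 ± 0.09 in WT and 14.22 ± 0.05 in KO mice, with a difference of 0.05 (95% interval -0.05 to 0.14, adjusted p = 0.49).

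**Figure D4:**
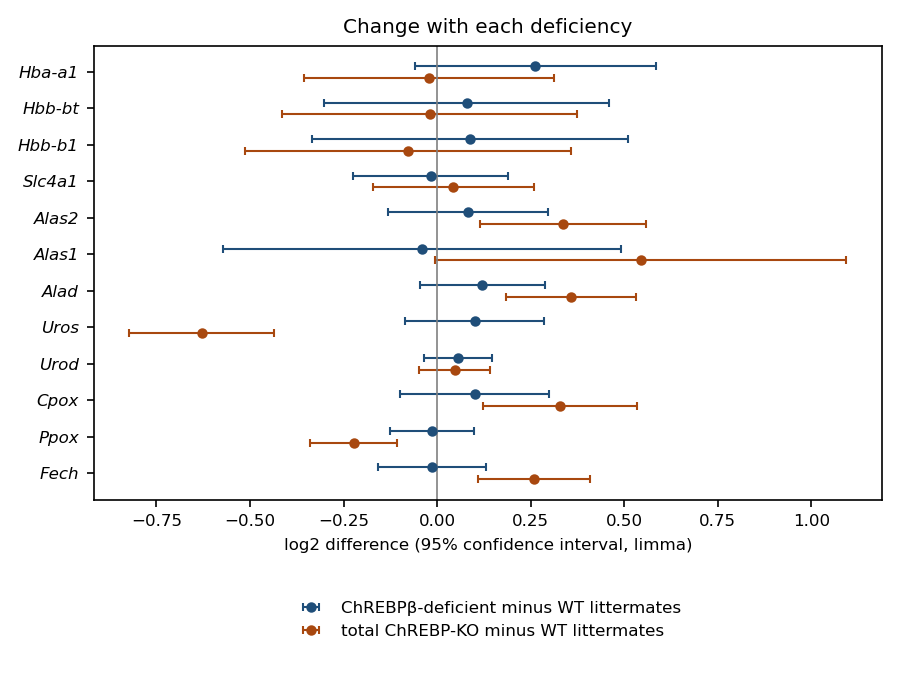
Log2 difference between deficient mice and WT littermates (horizontal axis) with 95% confidence intervals from limma, for 12 genes, in the ChREBPβ line (blue) and the total ChREBP line (orange). All 12 intervals of the ChREBPβ line cross 0, whereas in the total ChREBP line those of Alas2, Alad, Cpox and Fech lie above 0 and those of Uros and Ppox below it.

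In ChREBPβ-deficient mice none of the 13 probes passed the test. By limma 0 of 13 had an unadjusted p under 0.05, the smallest being 0.11, and of all probes 0.00277% were called. Differences of the brightest probes lay between -0.04 for Alas1 (95% interval -0.57 to 0.49) and 0.26 for Hba-a1. For Urod and Fech the intervals were narrow, at -0.04 to 0.15 and -0.16 to 0.13. The change in total ChREBP-KO mice was not shown to differ from that in ChREBPβ-deficient mice for any of the 9 genes. In the test of the difference 0 of 13 probes were called (3 had an unadjusted p under 0.05), against 15.1% of all probes, and the smallest adjusted p was 0.067 for Fech. That call was gained under 5 of 13 alternatives, at 0.28 to 0.31.

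Genes that supply or carry heme precursors changed in part in total ChREBP-KO mice. Of 16 measured partners and transporters, 6 were called higher and 1 lower, against 17.3% and 17.1% of all genes. Slc25a38, the mitochondrial glycine carrier that feeds ALAS, rose by 0.41 (limma adjusted p = 0.002), Abcg2, a porphyrin exporter, by 0.34 (adjusted p = 0.033), and Iba57, an iron-sulfur cluster factor, by 0.29 (adjusted p = 0.002). Glrx5, which also serves iron-sulfur cluster assembly, fell by 0.41 (adjusted p = 0.0005). Abcg2 differed by 0.059 on the second scan day (adjusted p = 0.84), and its call was lost under 4 of 14 alternatives and in 7 of the 31 fits without 1 mouse. The call of Slc25a38 was lost under 2 of 13 alternatives (adjusted p up to 0.28). Those of Iba57 and Glrx5 were lost under 2 and 1 of 14 (up to 0.13 for each). Slc25a38, Iba57 and Glrx5 kept their calls in all 31 fits without 1 mouse. Of 8 genes of heme breakdown and plasma heme binding, 2 were called higher and 2 lower, against the same shares of all genes. Blvrb, a biliverdin reductase, rose by 0.36 (adjusted p = 0.007) and Lrp1, the hemopexin receptor, by 0.28 (adjusted p = 0.019). Hpx, hemopexin, fell by 0.32 (adjusted p = 0.008) and Blvra by 0.17 (adjusted p = 0.043). Blvra differed by -0.027 on the first scan day (adjusted p = 0.88), and its call was lost under 5 of 14 alternatives and in 10 of the 31 fits without 1 mouse. The call of Lrp1 was lost under 5 of 14 alternatives and in 1 of those 31 fits. Blvrb lost its call under 2 of 14 alternatives (adjusted p up to 0.18) and Hpx under 1 of 14 (up to 0.25), and both kept it in all 31 fits. Hmox1, heme oxygenase, was at 10.46 in WT littermates and 10.75 in KO mice (adjusted p = 0.32).

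Among 12 genes that are known to control Alas1, 3 were called higher and 2 lower in total ChREBP-KO mice, against 17.3% and 17.1% of all genes. Nr1i3, the nuclear receptor CAR, which induces Alas1 and cytochromes P450, rose by 1.17 (log2, limma adjusted p = 1.05e-06), and the change differed from that in the ChREBPβ line (adjusted p = 0.002). Nr1d1, the clock repressor REV-ERBα, rose by 1.21 (adjusted p = 0.0003). Npas2, a clock activator of Alas1, fell by 0.83 (adjusted p = 0.003). Its probe was dim, at 5.69 in WT littermates and 4.86 in KO mice, and well above background on 25 of 31 arrays. The call of Npas2 was lost under 1 of 13 alternatives (adjusted p up to 0.24). Nr1h4, the bile acid receptor, fell by 0.30 (adjusted p = 0.028), a call lost under 2 of 14 alternatives and in 3 of the 31 fits without 1 mouse. Ppargc1a was at 8.70 and 8.73.

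Of 16 measured liver proteins of the heme-using group, 14 were called higher and 1 lower in total ChREBP-KO mice, against 17.3% and 17.1% of all genes, with a median log2 difference of 0.61. Most bind heme, and the list also holds Por, which passes electrons to cytochromes P450. Cyp2b10, a CAR target, rose by 3.21 (limma adjusted p = 0.0007), Cyp2a5 by 1.68 (adjusted p = 1.06e-07) and Tdo2, the tryptophan dioxygenase, by 0.94 (adjusted p = 0.0002). Cyp8b1, of bile acid synthesis, fell by 1.92 (adjusted p = 5.37e-07). In ChREBPβ-deficient mice none of the 16 was called, and their median was 0.11. Of the list, 8 genes passed the test of the difference between lines, 7 toward a higher value in the total ChREBP line.

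The blood cell lists moved little with total ChREBP deficiency. Of 20 red cell and erythroblast genes 3 were called higher and 2 lower, against 17.3% and 17.1% of all genes, with a median log2 difference of 0.0029. Car2, a carbonic anhydrase, rose by 0.62 (limma adjusted p = 0.016), but on the second scan day it differed by 0.02. Icam4 fell by 0.61 (adjusted p = 0.001) and Nfe2, an erythroid factor, by 0.48 (adjusted p = 0.042). The call of Nfe2 was lost under 5 of 13 alternatives (adjusted p up to 0.34) and in 10 of the 31 fits without 1 mouse. Of the other lists, 1 of 7 neutrophil, 1 of 8 lymphocyte and 3 of 5 exocrine pancreas genes were called lower, 2 of 7 hepatocyte and 1 of 5 adipocyte genes higher, and none of the platelet, Kupffer cell or sinusoidal endothelial genes. In ChREBPβ-deficient mice no gene of any list was called by limma. The part of other cells in the changes of the enzymes was not tested.

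The genes whose deviations were most like those of Alas1, over 31 mice, were NAP114294-1 (r = 0.753), Plcxd2 (0.729), D230025D16Rik (0.723), Onecut1 (0.71) and Slc25a13 (0.688). No globin gene and no other heme synthesis enzyme was among them. Plcxd2 was at 10.24 ± 0.20 (SD, n = 8) in WT littermates and 11.51 ± 0.29 (n = 7) in total ChREBP-KO mice, and it was picked for its likeness to Alas1 within groups. Onecut1, a hepatocyte transcription factor, ranged from 9.95 to 13.49 in WT mice of the ChREBPβ line, a wider range than that of Alas1.

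The promoters of the red cell genes are shown because Hba-a1 and Hbb-bt moved together between mice. The correlation of Alas2 with Hba-a1 did not pass the test (r = 0.315, permutation adjusted p = 0.20). A link between promoter letters and these correlations was not tested. Each is the 250 bases before the start in the RefSeq table of GRCm38.p6. Capitals mark motifs on either strand, with overlaps joined. The GATA motif was searched as TGATAA and also as AGATAA. The CACCC box was searched as CCACCC, the CCAAT box by its name and the TATA box as TATAA.
Hba-a1, chr11:32283422-32283671, plus strand: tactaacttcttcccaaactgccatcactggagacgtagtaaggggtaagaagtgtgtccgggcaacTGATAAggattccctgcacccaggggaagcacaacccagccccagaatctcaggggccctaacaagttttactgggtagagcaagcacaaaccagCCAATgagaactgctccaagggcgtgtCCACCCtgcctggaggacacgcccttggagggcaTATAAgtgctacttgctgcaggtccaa
Hbb-bt, chr7:103813924-103814173, minus strand: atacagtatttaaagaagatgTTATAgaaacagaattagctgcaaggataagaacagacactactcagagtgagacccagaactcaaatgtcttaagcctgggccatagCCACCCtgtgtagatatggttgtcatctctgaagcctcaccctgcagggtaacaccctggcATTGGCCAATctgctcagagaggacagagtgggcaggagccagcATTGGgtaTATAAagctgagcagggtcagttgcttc
Alas2, chrX:150547167-150547416, plus strand: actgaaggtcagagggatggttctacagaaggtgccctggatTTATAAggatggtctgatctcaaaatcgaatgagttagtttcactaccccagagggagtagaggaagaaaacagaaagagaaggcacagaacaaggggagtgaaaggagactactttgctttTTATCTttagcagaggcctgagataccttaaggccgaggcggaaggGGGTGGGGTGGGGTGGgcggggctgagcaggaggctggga
Of 32851 promoters of that length in the table, 7.94% hold the first form of the GATA motif and 9.99% the second, 28.1% a CACCC box, 33.8% a CCAAT box and 22.8% a TATA box. The letters of the CACCC and TATA boxes occurred in all 3 promoters shown, the CCAAT box in both globin promoters and not in that of Alas2, and a GATA motif in those of Hba-a1 (first form) and Alas2 (second form). The TATA letters of Alas2 lie toward the far end of its 250 bases, whereas both globin promoters hold a match near the start. The Hba-a1 and Hba-a2 entries, over 300 bases, share a run of 297.

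Among the enzyme promoters these letters were unevenly spread. Neither Alas1 start had a TATA box, a CCAAT box or a GATA motif, whereas the Ppox promoter held 4 CCAAT boxes. CACGTG, the E-box letters that make up the core of carbohydrate response elements, occurred in 6.02% of all promoters. It was found before both Alad starts, before Urod and before 1 of 2 Uros starts, and not before Alas1, Alas2, Cpox, Ppox, Hba-a1 or Hbb-bt. Of these genes Alad rose, Uros fell and Urod did not pass the test in total ChREBP-KO mice. A match is a description of the letters, and 10 of 12 genes looked for, Hbb-bs among them, had an entry (all but Hbb-b1 and Slc4a1). Fech was not looked for.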

How the data were processed

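The authors deposited scanner files of Agilent Feature Extraction 10.10.1.1 that give spot intensity without normalization. They also deposited 1 log2 table, for which their Methods take the median pixel intensity, drop spots by weight, apply quantile normalization and keep the median where a probe is repeated. Array positions are on mm9, and gene names are those of the design.

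Here log2 median intensity was recomputed with the authors' weights (at least 26 arrays, or 6 arrays of a group), leaving 38721 spots and 36059 probes. These values correlated with the deposited table at r = 0.999995. The 4 groups entered 1 limma 3.58.1 model (R 4.3.3), with Benjamini-Hochberg adjustment over all probes and a threshold of 0.05. Contrasts were each deficiency against its WT littermates and the difference of both. The offset between lines was described only. A gene is represented by its brightest probe, and is called if any probe is called. The number of arrays limits the precision. The fits were tested on simulated data with 200 changed probes. Of 1.3-fold changes, 70.5% were recovered in the ChREBPβ comparison and 66% in the total ChREBP comparison. Of 2-fold changes, 97.5% and 96.5% were recovered. Unchanged probes gave 23 to 31 false calls in the ChREBPβ comparison and 0 in the other. Figures were drawn with matplotlib.

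The 9 genes and all 16 gene lists were chosen with earlier results of these data known. Named were all 9 genes and 3 other enzymes, up to 4 called genes of each further list by size of difference, and the genes most like Hba-a1 (4) and Alas1 (5). Some genes of these lists are not reported here. Others (S100a9, Alb, Hemgn, Hmox1, Ppargc1a, Por, Hba-a2, Hbb-b2, Hbb-bh1, Mlxipl) were chosen after their values were seen. Alternatives were other signals, filters, blocks (slide, scan day, replicate number), single days or lines, leaving out each array, and Hba-a1 as a covariate. Correlations used 100000 permutations within groups.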

Additional observations from a re-analysis of the deposited data

Results flagged for a closer look

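In 6 of 48 gene and group sets of 7 or 8 mice, 1 mouse stood apart from the rest by Dixon's criterion at 95%, which flags about 1 in 20 sets by chance. Slc4a1 was highest in WT replicate 3 of the ChREBPβ line, at 6.16 against 5.53 for the next mouse, and lowest in WT replicate 7 of the total ChREBP line, at 5.21 against 5.57. Alas1 was lowest in WT replicate 4 of the total ChREBP line, at 13.49 against 14.39. Alad was lowest in WT replicate 2 of that line, at 13.53 against 13.76, and in total ChREBP-KO replicate 7, at 13.74 against 14.10. Fech was lowest in WT replicate 5 of the ChREBPβ line, at 13.57 against 13.75.

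The change of Uros differed between the lines for each of its 3 probes, by -0.73, -0.71 and -0.35 (log2, change in total ChREBP-KO mice minus change in ChREBPβ-deficient mice, limma adjusted p = 0.0002, 0.0007 and 0.022).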

How the results depend on the processing

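The count of called probes among the 13 in total ChREBP-KO mice was 4, and 2 and 1 with the first and the second scan day alone (fewer arrays). Leaving out each array gave 2 to 4, with 2 without total ChREBP-KO replicate 8. In the test of the difference the count was 0, and 1 (Fech) with the processed signal, the deposited values, slide as a random or a fixed block, and the replicate block, and 0 to 1 when each array was left out. In ChREBPβ-deficient mice it was 0 under every alternative. The Hba-a1 offset between WT groups was 0.97 to 1.13 when each array was left out. The Alas1 probe A_66_P109200 lost its call under 7 of 14 alternatives, added after its values were seen. Replicate numbers were not taken to pair the mice, since the labels tie them to nothing shared and not every pair correlated above 0.1 (same-numbered mice from -0.16 to 0.53 in the ChREBPβ line and -0.21 to 0.24 in the other, with 4 of 8 and 1 of 7 closest to their own number, a hint of shared numbers in the ChREBPβ line). The replicate block gave the counts of 3 and 1 above, and in ChREBPβ-deficient mice it took the standard error of Hba-a1 from 0.16 to 0.11 with no call (adjusted p = 0.78). Uros kept its call under all 14 alternatives.

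Differences that changed sign were uncalled. They are given as log2 values of ChREBPβ-deficient mice (ChREBPβ), of total ChREBP-KO mice (total) or of the difference between lines, and the cause was not tested. With the processed signal scaled to the 75th percentile they were 0.068 for Slc4a1 (ChREBPβ), -0.030 for Urod (ChREBPβ), -0.0082 for Urod (total) and 0.022 for Urod (difference). With the median signal scaled in that way they were -0.0069 for Urod (ChREBPβ) and 0.0081 for Urod (difference). With the deposited values they were 0.025 for Urod (difference). With slide as a fixed block they were 0.087 for Hba-a1 (total), 0.12 for Hbb-bt (total), 0.031 for Hbb-bt (difference), 0.051 for Urod (difference) and 0.022 for Ppox (ChREBPβ). With scan day as a fixed block they were 0.0040 for Urod (difference) and 0.00069 for Ppox (ChREBPβ). On the first scan day they were -0.084 for Hba-a1 (ChREBPβ), 0.025 for Hba-a1 (difference), -0.34 for Hbb-bt (ChREBPβ), 0.0081 for Hbb-bt (total), 0.35 for Hbb-bt (difference), -0.28 for Hbb-b1 (ChREBPβ), 0.27 for Hbb-b1 (difference), -0.060 for Slc4a1 (total), 0.088 for Urod (difference), 0.045 for Fech (ChREBPβ) and -0.0030 for Cpox (ChREBPβ). On the second scan day they were 0.16 for Slc4a1 (ChREBPβ), -0.0077 for Slc4a1 (difference), 0.35 for Alas1 (ChREBPβ), -0.16 for Alas1 (difference), -0.020 for Urod (total), -0.030 for Cpox (difference) and 0.060 for Ppox (ChREBPβ). With the replicate block they were 0.019 for Hba-a1 (total) and 0.0043 for Hbb-bt (total). With Hba-a1 as a covariate they were 0.021 for Fech (ChREBPβ). Leaving out each array gave -0.18 to 0.095 for Alas1 (ChREBPβ), -0.049 to 0.016 for Fech (ChREBPβ), -0.11 to 0.067 for Hba-a1 (total), -0.20 to 0.10 for Hbb-b1 (total), -0.29 to 0.0093 for Hbb-b1 (difference), -0.00070 to 0.19 for Hbb-bt (ChREBPβ), -0.12 to 0.10 for Hbb-bt (total), -0.21 to 0.017 for Hbb-bt (difference), -0.041 to 0.011 for Ppox (ChREBPβ), -0.055 to 0.076 for Slc4a1 (ChREBPβ), -0.016 to 0.11 for Slc4a1 (total), -0.033 to 0.13 for Slc4a1 (difference) and -0.030 to 0.0097 for Urod (difference). Correlations with Hba-a1 changed sign for Alas1 (0.087), Alad (-0.20) and Fech (0.057) in the ChREBPβ line, for Alad on the first scan day (-0.096) and for Urod on the second (0.49).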
